A study of Mus musculus with 2 samples.

Results

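The ligands and receptors of the tumor necrosis factor (TNF) superfamilies were examined in hepatocytes cultured from control and *Drp1*LiKO mice. Members were the genes whose name on the array is Tnfsf or Tnfrsf followed by a number, together with *Tnf*, *Lta*, *Ltb*, *Ltbr*, *Cd40*, *Cd40lg*, *Cd27*, *Cd70*, *Fasl* and *Eda2r*. They numbered 41 of 37071 gene names and were read by 68 probes. Of these, 16 code for ligands, 24 code for receptors and 1, *Tnfsf13os*, is an antisense RNA. The control mice, called wild type in the labels, were *Drp1*flox/flox littermates according to the methods. The *Drp1*LiKO mice were *Drp1*flox/flox animals that also carried Alb-Cre (Tg/+), a transgene in which the albumin promoter drives Cre recombinase in hepatocytes, so both groups shared the floxed allele and the C57BL/6 background. Drp1, a dynamin-related GTPase, divides mitochondria. Hepatocytes were isolated by collagenase perfusion, pelleted at low speed, plated on collagen and harvested 24 h after seeding, with no treatment named in the labels. The number, age and sex of the animals behind each culture are not given in the sources used here.

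TNF superfamily ligands are made as trimers on the cell surface, and many are cut off to act as soluble cytokines. Their receptors recruit TRAF adaptors, which activate NF-kappaB, or, where they carry a death domain, adaptors that can activate caspase 8. Decoy receptors bind a ligand without passing on its signal. In liver, TNF comes mainly from macrophages, and hepatocytes respond to it through *Tnfrsf1a*.

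RNA was hybridized to 1 array per genotype, which allows no test and no p-value. Each difference describes these 2 arrays, and their number limits the precision of every value. Signals were scaled to the 75th percentile of each array, and below are given as scaled signals with a common unit, so that their quotient is the fold change. A probe was called detected where the authors' software marked it well above background. The lowest scaled signal so marked was 19.4 on the control and 14.1 on the *Drp1*LiKO array, and a fold change against a signal that was not well above background was computed against the higher of that limit and the probe's own signal and is written as at least that fold. The threshold was a Z score of 2 over the log2 ratios of all detected probes, which lay at a log2 ratio of 1.30 for higher and -1.31 for lower genes. The error given beside a ratio is the SD of the noise between spots within an array, combined over both arrays and taken from probes printed 10 times. It holds no difference between cultures or animals. *Dnm1l*, which codes for Drp1, had a scaled signal of 2772 in control versus 1143 in *Drp1*LiKO cells by its brighter probe (log2 ratio -1.28, Z score -1.95), and whether this probe lies in the deleted part of the gene was not assigned here.

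A probe reports a gene only as far as its 60 bases belong to that gene alone, so 30 bases are shown of those probes on which the results below turn. Capitals mark, in *Tnfsf10*, the first copy of a repeated unit. In *Tnfrsf1b*, *Tnfsf15* and *Tnfrsf9* they mark bases in runs of 16 or more that probes of other genes hold on the same or the opposite strand. The first 2 sequences are the probes of *Tnf*, which disagreed, followed by those of *Tnfsf15*, *Tnfrsf11b*, *Tnfrsf9*, *Tnfsf10* and *Tnfrsf1b*.
Tnf, A_55_P2740937: ttattgtctactcctcagagcccccagtct
Tnf, A_51_P385099: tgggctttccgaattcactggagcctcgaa
Tnfsf15, A_55_P2182452: ggggctaaatagTAATTTTCAGGAAAGCct
Tnfsf15, A_66_P106167: gatgtcagtgttcacctattcttattgata
Tnfrsf11b, A_52_P106620: tttatccagctgtcatgtctggttcagtat
Tnfrsf9, A_55_P2831060: ccccaaactagCCTTTCCATTTTTAAAAgc
Tnfrsf9, A_55_P2082180: cgcgcacctcatccaagtctcttctaacgc
Tnfsf10, A_66_P109553: AGCGCCCCTGACAACagcgcccctgacaac
Tnfsf10, A_55_P2018017: gggaaatgttaaactttgtaaactctgaaa
Tnfrsf1b, A_52_P228621: tgcttataaatgCTTTTTGTTGTTGTTTTG
Tnfrsf1b, A_55_P2738892: ctccTGTAGCCCAGGCTGGCCTTCAggtca

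The *Tnfsf10* probe A_66_P109553 consists of 4 copies of a unit of 15 bases. Only 24 of 56605 probes on the array (0.0424%) held a tandem repeat of 45 bases or more, and among the members' probes it was the only one. Runs of 16 bases shared with a probe of another gene, on either strand, were found in 11 of the 68 probes. They were most frequent in *Tnfrsf1b*, with probes of other genes numbering 9 for A_52_P228621 and 4 for A_55_P2738892. The gene names of those 4 probes are *Rheb*, *Taf7l*, *Tbce* and Rn4.5s, a short repeat-like RNA. All 4 hold the run on the opposite strand only, as does the 1 probe that shares a run with *Tnfrsf9* probe A_55_P2831060. Of the 9 probes, 6 hold it on the same strand and 3 on the opposite strand. The probes of the related genes *Tnfrsf22*, *Tnfrsf23* and *Tnfrsf26* had no such run in common. Transcripts were not compared, and whether a probe lies in a coding exon or a UTR was not assigned here.

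In these hepatocytes the receptors were mostly detected and the ligands mostly not. A probe was well above background on at least 1 array for 19 of 24 receptor genes, 7 of 16 ligand genes and the antisense RNA, 27 members in all. Of these, 24 were measured on both arrays and 3, *Tnfrsf11b*, *Tnfrsf9* and *Tnfsf13b*, only on the *Drp1*LiKO array. The other 14 genes, with 17 probes, were not well above background on either array, with scaled signals up to 17.2 in control versus 8.36 in *Drp1*LiKO cells. They were the ligand genes *Cd40lg*, *Cd70*, *Fasl*, *Lta*, *Ltb*, *Tnfsf4*, *Tnfsf11*, *Tnfsf14* and *Tnfsf18* and the receptor genes *Cd27*, *Tnfrsf8*, *Tnfrsf13c*, *Tnfrsf17* and *Tnfrsf18*. Many of these are known from lymphocytes, and among lymphocyte markers 9 of 12 for T and NK cells were not well above background on either array. The others were detected on both: *Cd3e* at 267 in control versus 206 in *Drp1*LiKO cells, *Prf1* at 191 and 116, and *Cd8b1* at 48.2 and 38.2. Of the B cell markers, *Cd79a* and *Cd79b* were at background on both arrays, whereas *Pax5* was detected on both (29.3 in control versus 20.4 in *Drp1*LiKO cells) and *Ms4a1* and *Cr2* were detected on the *Drp1*LiKO array alone (15.9 and 35.7). No fold change is given for a gene at background on both arrays.

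**Figure D1:**
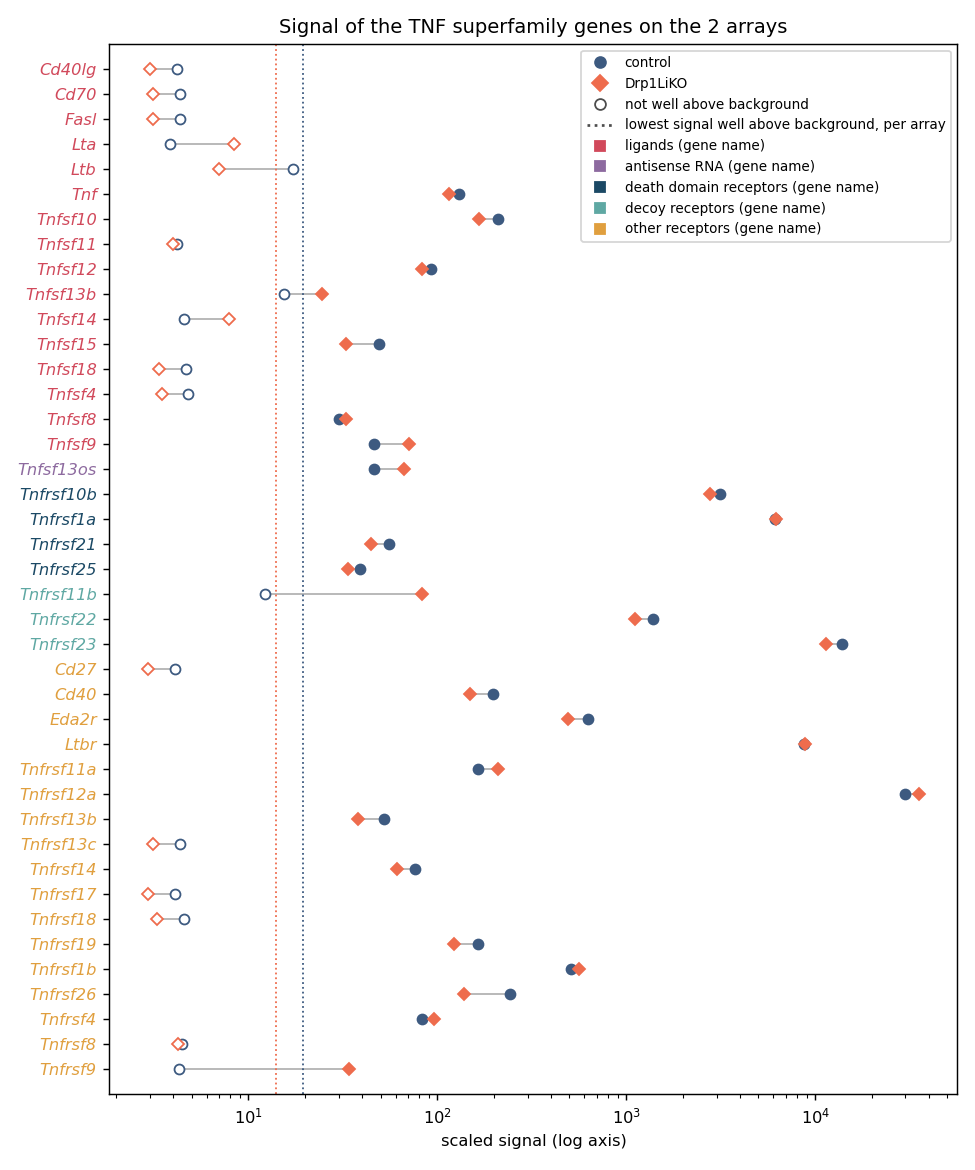
Scaled signal (x axis, log scale) of the 41 TNF superfamily genes (y axis, by class) in control (circles) and *Drp1*LiKO cells (diamonds), 1 array each, at the brightest detected probe or, where none was detected, at the brightest probe. Open symbols were not well above background, and the dotted lines at 19.4 and 14.1 are the lowest signals that were; only *Tnfrsf11b*, *Tnfrsf9* and *Tnfsf13b* have an open control symbol beside a filled *Drp1*LiKO symbol.

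By its brightest probe, 1 of the 27 detected members (3.7%) passed the threshold as higher in *Drp1*LiKO cells, against 3.5% of all 20165 detected genes. As lower, 0 of 27 passed, against 2.81% of all genes. The member past the threshold was *Tnfrsf11b*, and the share of members was near that of all genes in both directions. The median log2 ratio of the 24 members measured on both arrays was -0.20, with a range from -0.81 to 0.61. The median over all 17735 genes measured on both arrays was -0.05. Within a log2 ratio of 0.5 of zero lay 20 of the 24 members (83.3%) and 78.8% of all genes. Below 0 lay 15 of the 24 members (62.5%), beside 56.4% of all genes. A ratio larger than 2 SD of the spot noise was found in 13 of the 24 members, beside 46.2% of all genes. Most members thus lay within a log2 ratio of 0.5 of zero, although 13 of the 24 exceeded 2 SD of the spot noise. With 1 array per genotype the spread between cultures is not known.

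**Figure D2:**
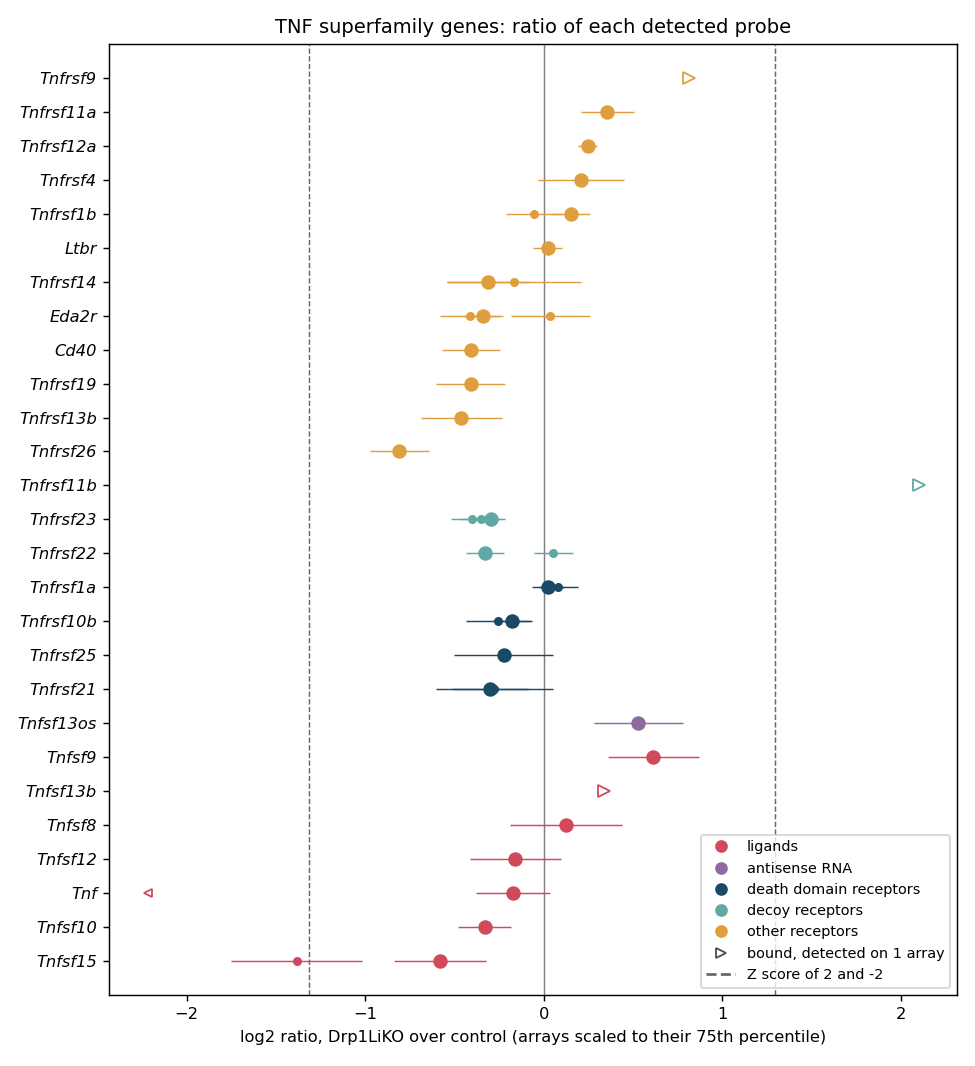
Log2 ratio, *Drp1*LiKO over control (x axis), of each detected probe of the TNF superfamily genes (y axis), colored by class, with large symbols for the brightest probe of a gene. Bars are 1 SD of the noise between spots, open triangles are bounds of probes detected on 1 array, and dashed lines mark Z scores of 2 and -2; beyond them lie *Tnfrsf11b*, the second probe of *Tnf* and the second probe of *Tnfsf15*, and 2 probes whose bound was under 1-fold are not drawn.

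*Tnf* itself, the ligand that names the family, gave different values at its 2 probes, both of which the files assign to NM_013693 on chromosome 17 of mm9, on the minus strand. Probe A_55_P2740937, at chr17:35336967-35337026, starts at base 938 of the transcript and had a scaled signal of 129 in control versus 115 in *Drp1*LiKO cells. Its log2 ratio was -0.17 ± 0.21 (SD of spot noise), within that noise. Probe A_51_P385099, at chr17:35336795-35336854, starts at base 1110 and had a scaled signal of 65.4 in control versus 9.90 in *Drp1*LiKO cells. The latter was not well above background, so that the *Tnf* signal at this probe was at least 4.65-fold lower in *Drp1*LiKO cells (log2 ratio -2.22, Z score -3.39). The probe further from the start of the transcript thus passed the threshold, whereas the brighter one did not, and neither shared a run of 16 bases with a probe of another gene. Which of the probes follows the *Tnf* transcript was not tested.

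Of the other detected ligands, *Tnfsf15* and *Tnfsf9* had the largest ratios, and only *Tnfsf15*, at 1 probe, passed the threshold. *Tnfsf15*, a ligand of *Tnfrsf25* that costimulates T cells, had a scaled signal of 49.3 in control versus 32.9 in *Drp1*LiKO cells at its brighter probe, at chr4:63388134-63388193 (log2 ratio -0.58 ± 0.26). At its other probe, at chr4:63385801-63385860, the scaled signal of *Tnfsf15* was 41.2 in control versus 15.8 in *Drp1*LiKO cells (log2 ratio -1.38 ± 0.37, Z score -2.11). Both *Tnfsf15* probes were thus lower in *Drp1*LiKO cells, and 1 of them passed the threshold. Counted by probe, 2 of the 41 detected member probes (4.88%), those of *Tnf* and *Tnfsf15*, passed as lower, against 2.49% of all 30275 detected probes, and 1 (2.44%) passed as higher, against 2.94%. These probes were singled out after their values were seen. *Tnfsf9*, the ligand of *Tnfrsf9*, had a scaled signal of 46.1 in control versus 70.6 in *Drp1*LiKO cells (log2 ratio 0.61 ± 0.25). *Tnfsf8*, the ligand of *Tnfrsf8*, was at 29.999 and 32.7 (log2 ratio 0.13 ± 0.31). *Tnfsf12*, which codes for TWEAK, was at 92.9 in control versus 83.2 in *Drp1*LiKO cells (log2 ratio -0.16 ± 0.25). The values of *Tnfsf8* and *Tnfsf12* lie within the noise between spots.

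*Tnfsf10*, which codes for the death ligand TRAIL, was detected only by the probe made of a tandem repeat. That probe, placed by the files at chr3:27241288-27241347 and assigned to the cDNA clone AK144931, had a scaled signal of 208 in control versus 166 in *Drp1*LiKO cells (log2 ratio -0.33 ± 0.15). The *Tnfsf10* probe assigned to the RefSeq transcript NM_009425, at chr3:27238508-27238567, had scaled signals of 4.07 and 4.68, not well above background on either array. The detection of *Tnfsf10* thus rests on the repeat probe. *Tnfsf13b*, which codes for the B cell survival factor BAFF, had 3 probes. Only 1, of a predicted transcript, was detected, at 24.5 in *Drp1*LiKO cells and 15.4, not well above background, in control cells, at least 1.26-fold higher. This direction turned in the authors' normalized values (log2 ratio -0.85) and was lost after normexp correction (-0.01). *Tnfsf13os*, transcribed on the plus strand of chromosome 11 opposite the ligand gene *Tnfsf13*, had a scaled signal of 46.0 in control versus 66.4 in *Drp1*LiKO cells (log2 ratio 0.53 ± 0.25). Its value says nothing of *Tnfsf13*, for which no probe under that name was among the members.

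The 4 receptors with a death domain among the members were all detected on both arrays, with log2 ratios from -0.30 to 0.02. Receptors that the naming rule leaves out, *Fas* among them, are given further below and are not counted here. *Tnfrsf1a*, the TNF receptor of hepatocytes, had a scaled signal of 6112 in control versus 6217 in *Drp1*LiKO cells at chr6:125312376-125312435 (log2 ratio 0.02 ± 0.09). Its other probe, at 463 and 489, gave a log2 ratio of 0.08 ± 0.11, so neither *Tnfrsf1a* probe differed beyond the noise between spots. *Tnfrsf10b*, the receptor of TRAIL, was at 3144 in control versus 2783 in *Drp1*LiKO cells (log2 ratio -0.18 ± 0.11). Another *Tnfrsf10b* probe gave -0.26 ± 0.18, and the one of a cDNA clone was at background on both arrays. *Tnfrsf21*, which codes for death receptor 6, was at 55.1 and 44.7 (log2 ratio -0.30 ± 0.21), with -0.28 ± 0.33 at its other probe. *Tnfrsf25*, the receptor of *Tnfsf15*, was at 39.1 and 33.5 (log2 ratio -0.22 ± 0.28).

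Among the decoy receptors, *Tnfrsf11b* stood apart from the others. It codes for osteoprotegerin, a secreted receptor that captures the ligands RANKL (*Tnfsf11*) and TRAIL. Its only probe, at chr15:54082760-54082819 on the minus strand (NM_008764), had a scaled signal of 12.3 in control cells, not well above background, and 83.3 in *Drp1*LiKO cells. The difference was at least 4.29-fold (log2 ratio 2.10, Z score 3.23). After normexp background correction of the raw intensities the ratio was 0.69 with a Z score of 1.75, short of the threshold. *Tnfrsf11b* is known from stromal and endothelial cells. In these cultures 3 of 7 detected markers of stellate cells and fibroblasts were past the threshold as higher in *Drp1*LiKO cells, with a median log2 ratio of 1.04. Their summed scaled signal was 23172 in control versus 24674 in *Drp1*LiKO cells, nearly all of it *Acta2*, or 334 and 1546 without that gene. The 3 detected *Acta2* probes had log2 ratios from 0.02, at the brightest, which alone enters the sum, to 2.20. Of the stellate cell markers, *Lrat* was at background on both arrays, whereas *Col3a1* rose from background to 171. Of 9 endothelial markers 5 were past the threshold as higher, and their summed scaled signal was 4407 and 7995, most of it *Egfl7*, or 387 and 1479 without that gene. The part of such cells in the *Tnfrsf11b* value was not tested, and in whole cultures more cells of a type cannot be told apart from more RNA per cell.

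The mouse decoy receptors of TRAIL, *Tnfrsf22* and *Tnfrsf23*, lie with the related receptor gene *Tnfrsf26* on chromosome 7 of mm9, with all probes between 150793990 and 150865910 on the minus strand. *Tnfrsf23* was lower in *Drp1*LiKO cells at each of its 3 probes. Its brightest probe was at 13891 in control versus 11323 in *Drp1*LiKO cells (log2 ratio -0.29 ± 0.08), and the others gave -0.35 ± 0.11 and -0.40 ± 0.12. *Tnfrsf22* was at 1392 and 1108 at 1 probe (log2 ratio -0.33 ± 0.11) and at 930 and 966 at the other (0.05 ± 0.11), so its probes differed in sign. *Tnfrsf26* had the lowest log2 ratio of the members measured on both arrays by their brightest probe. Its scaled signal was 241 in control versus 138 in *Drp1*LiKO cells at chr7:150793990-150794049 (log2 ratio -0.81 ± 0.17, Z score -1.23), 1.75-fold lower and short of the threshold.

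Of the remaining receptors, *Tnfrsf9* was the one that went from background to detection. *Tnfrsf9* codes for 4-1BB, a costimulatory receptor of activated lymphocytes and myeloid cells. Its probe at chr4:150320145-150320204 had a scaled signal of 4.29 in control cells, not well above background, and 34.1 in *Drp1*LiKO cells, at least 1.75-fold higher (log2 ratio 0.81, Z score 1.26). After normexp correction the log2 ratio was 0.19. Its other probe was at 3.97 and 14.042 and not well above background on either array. The *Tnfrsf9* value thus rests on 1 detected probe, which did not pass the threshold. Its ligand gene *Tnfsf9* had a positive log2 ratio as well, of 0.61, also short of the threshold.

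*Tnfrsf12a*, which codes for Fn14, the TWEAK receptor that is induced in regenerating liver, had a scaled signal of 29796 in control versus 35339 in *Drp1*LiKO cells at chr17:23812746-23812805. Its log2 ratio of 0.25 ± 0.05 exceeded the noise between spots, but in the authors' own normalized values the sign turned, to -0.47. *Ltbr*, the lymphotoxin beta receptor, was at 8718 and 8850 (log2 ratio 0.02 ± 0.08), while the genes of its ligands, *Lta*, *Ltb* and *Tnfsf14*, were not detected. *Tnfrsf1b*, the second TNF receptor, was at 507 and 563 at 1 probe (log2 ratio 0.15 ± 0.11) and at 168 and 161 at the other (-0.05 ± 0.16), the probes that share runs with probes of other genes. *Tnfrsf11a*, the RANKL receptor, was at 164 in control versus 209 in *Drp1*LiKO cells (log2 ratio 0.36 ± 0.15), and *Tnfsf11* itself was not detected. Another *Tnfrsf11a* probe was detected only on the *Drp1*LiKO array, at 18.2, under the control limit, and gives no fold change. *Tnfrsf4*, which codes for OX40, was at 83.0 and 95.9 (log2 ratio 0.21 ± 0.24).

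Lower signals in *Drp1*LiKO cells, none past the threshold, were found for 5 other receptors. *Cd40*, a costimulatory receptor that hepatocytes can also express, was at 196 in control versus 148 in *Drp1*LiKO cells (log2 ratio -0.41 ± 0.16). *Eda2r*, a receptor of ectodysplasin A2, was at 624 and 493 (log2 ratio -0.34 ± 0.11), and its other probes gave -0.41 ± 0.17 and 0.04 ± 0.22. *Tnfrsf19*, which codes for TROY, was at 163 and 123 (log2 ratio -0.41 ± 0.19), and another of its probes, detected only on the *Drp1*LiKO array at the detection limit, gives no fold change. *Tnfrsf13b*, which codes for TACI, was at 52.4 and 38.1 (log2 ratio -0.46 ± 0.23) at the only one of its 3 probes that was detected. *Tnfrsf14*, which codes for HVEM, was at 75.9 and 61.1 (log2 ratio -0.31 ± 0.23) and gave -0.17 ± 0.37 at its other probe.

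Over the 9 members with more than 1 probe measured on both arrays, the log2 ratios of the probes of a gene differed by a median of 0.15. The probes of a gene had the same sign in 6 of the 9 genes, the exceptions being *Eda2r*, *Tnfrsf1b* and *Tnfrsf22*. The gap was widest in *Tnfsf15*, at 0.80, and under 0.5 in the other 8. *Tnf* is not among the 9, since its second probe was measured on 1 array.

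**Figure D3:**
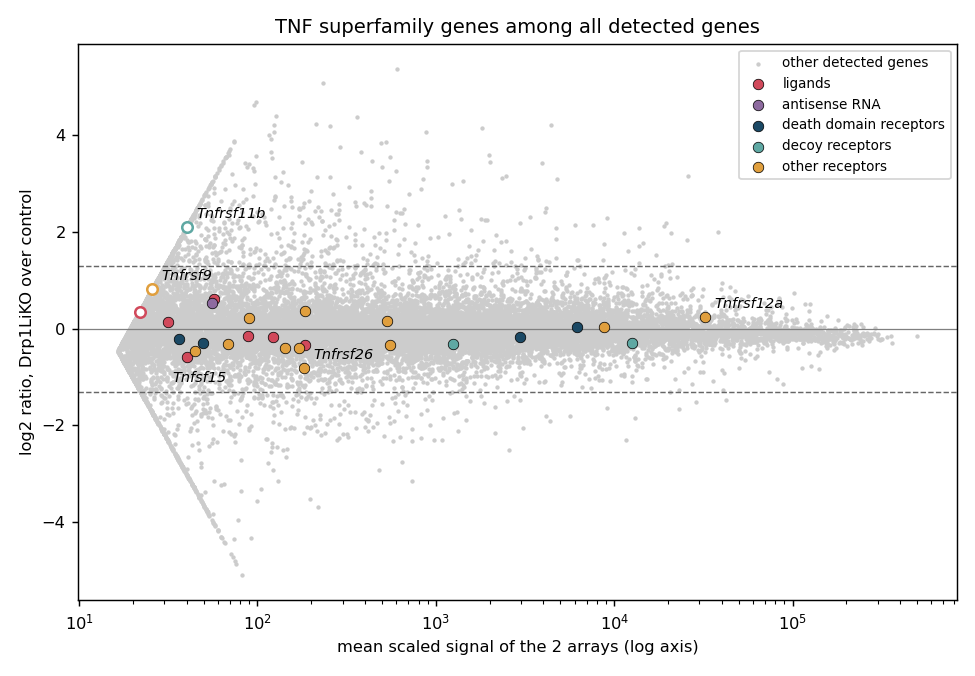
Log2 ratio, *Drp1*LiKO over control (y axis), against the mean scaled signal of the 2 arrays (x axis, log scale) for all 20165 detected genes (grey) and the 27 detected TNF superfamily genes (colored by class, open where the gene was detected on 1 array). The members lie inside the grey cloud, and only *Tnfrsf11b* is beyond the dashed lines at Z scores of 2 and -2; the straight grey edges at low signal are genes whose ratio is a bound.

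The ratios of the members were also set beside those of genes of similar signal. For mean scaled signals under 100, the median log2 ratio was -0.19 over 10 members and -0.04 over 3892 genes. From 100 to 1000 it was -0.34 over 8 members and -0.06 over 5911 genes. From 1000 up it was -0.08 over 6 members and -0.05 over 7932 genes. The member medians were below those of all genes in each class, which was not tested.

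Of the 7 detected ligand genes, all but *Tnfsf8* had a detected receptor gene. Both sides were measured on both arrays for *Tnf* with *Tnfrsf1a* and *Tnfrsf1b*, for *Tnfsf12* with *Tnfrsf12a*, for *Tnfsf15* with *Tnfrsf25* and, through the repeat probe alone, for *Tnfsf10* with *Tnfrsf10b* and the decoy receptor genes *Tnfrsf22* and *Tnfrsf23*. The receptor was detected without its ligand for *Cd40*, *Ltbr*, *Tnfrsf4*, *Tnfrsf14* and *Tnfrsf11a*. *Tnfsf8* was detected without its receptor, at 1 of its 2 probes. For *Tnfsf9* with *Tnfrsf9* and *Tnfsf13b* with *Tnfrsf13b*, 1 side was detected only on the *Drp1*LiKO array. *Fas*, the receptor of *Fasl* and a member of the superfamily that its name keeps outside the rule, was lower in *Drp1*LiKO cells at each of 3 probes. The brightest of these had a scaled signal of 719 in control versus 356 in *Drp1*LiKO cells (log2 ratio -1.02 ± 0.11) and is placed by the files on chromosome 4, while those on chromosome 19 gave -0.80 ± 0.16 and -0.31 ± 0.27. None of the *Fas* probes passed the threshold. Of the other superfamily genes outside the rule, *Relt* gave 0.19 ± 0.15 at its brightest probe and -0.25 ± 0.16 and 0.04 ± 0.20 at the others. *Eda* gave -0.62 ± 0.22, and *Ngfr* and *Edar* were not detected.

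Genes for the proteins that carry the signal of these receptors were all detected, and none passed the threshold. All 35 genes of a list of adaptors, kinases, ubiquitin ligases and caspase regulators were measured on both arrays. The list had a median log2 ratio of -0.08 and a range from -1.28 to 0.89. The shares of all genes past it were 3.5% as higher and 2.81% as lower. The lowest was *Traf1*, an adaptor that is itself induced by NF-kappaB, at 99.2 in control versus 40.7 in *Drp1*LiKO cells (log2 ratio -1.28 ± 0.20, Z score -1.96). It passed the threshold under 3 of the alternatives, with no filter, with probes detected on both arrays and with a robust Z score. The highest was *Rnf31*, the catalytic subunit of the linear ubiquitin ligase, at 1585 and 2933 (log2 ratio 0.89 ± 0.11, Z score 1.37). *Adam17*, the protease that releases TNF from the cell surface, was at 785 and 779 (log2 ratio -0.01 ± 0.11).

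Genes known to be induced by TNF moved in both directions. Of 20 listed genes 18 were detected, *Sele* was at background and *Bcl2a1a* had no probe under that name. Their median log2 ratio was -0.44, and 14 of the 18 lay below 0. Of all genes measured on both arrays 56.4% did, an unlike set, since only 16 of the 18 were measured on both. As higher, 2 of the 18 passed the threshold, beside 3.5% of all genes, and as lower 3 did, beside 2.81%. *Ccl5*, a chemokine that interferons also induce, had a scaled signal of 569 in control versus 6856 in *Drp1*LiKO cells (log2 ratio 3.59 ± 0.10, 12.0-fold). *Il6* was not well above background in control cells and at 65.4 in *Drp1*LiKO cells, at least 3.37-fold higher (log2 ratio 1.75). Another *Il6* probe gave a log2 ratio of 0.92, short of the threshold, and *Il6* did not pass after normexp correction. *Csf1*, the macrophage growth factor, fell from 8480 to 2263 (log2 ratio -1.91 ± 0.10). *Icam1*, an adhesion molecule, fell from 4181 to 1488 (log2 ratio -1.49 ± 0.10), and *Ccl2*, which codes for the chemokine MCP1, fell from 70648 to 25502 (log2 ratio -1.47 ± 0.05). The NF-kappaB inhibitor gene *Nfkbia* was at 7058 in control versus 3605 in *Drp1*LiKO cells (log2 ratio -0.97 ± 0.09) and did not pass the threshold. In the authors' normalized values, *Ccl5* and *Csf1* passed the threshold, whereas *Il6*, *Icam1* and *Ccl2* did not.

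**Figure D4:**
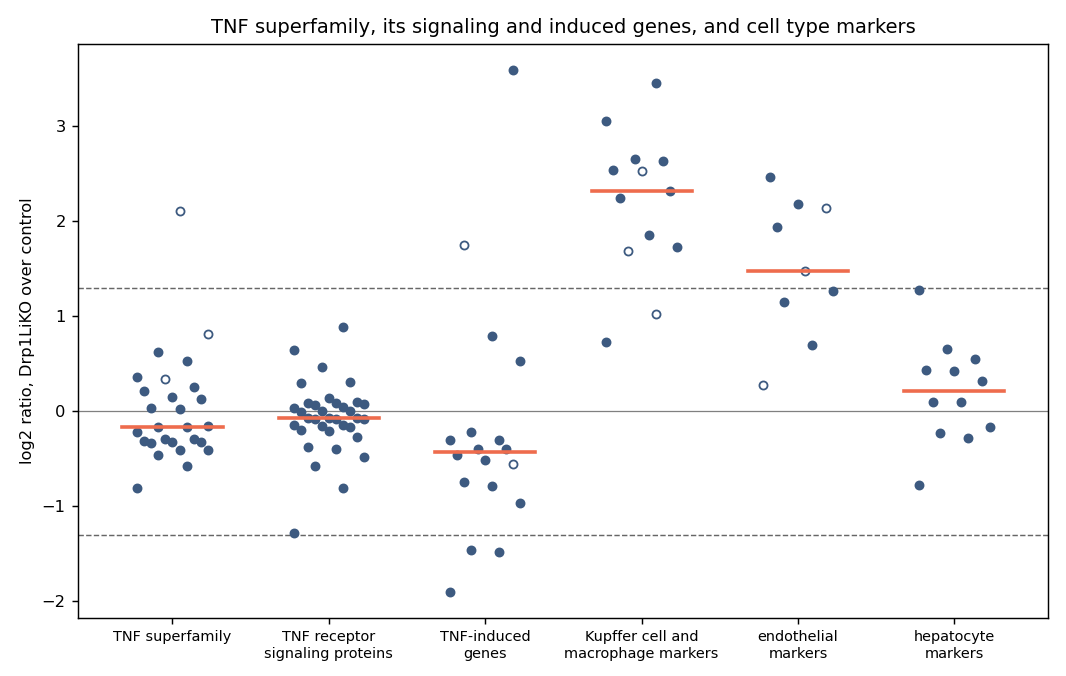
Log2 ratio, *Drp1*LiKO over control (y axis), of the detected genes of each list (x axis), 1 point per gene by its brightest probe, open where detected on 1 array, with the list median as a bar and Z scores of 2 and -2 as dashed lines. The medians are -0.17 for the TNF superfamily, -0.08 for the signaling proteins, -0.44 for the TNF-induced genes, 2.32 for Kupffer cell and macrophage markers, 1.47 for endothelial markers and 0.21 for hepatocyte markers.

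The cell types that could contribute to these cultures were read from marker lists. None of 12 hepatocyte markers passed the threshold (median log2 ratio 0.21), and *Alb* was at 233965 in control versus 250342 in *Drp1*LiKO cells. Of 13 detected Kupffer cell and macrophage markers 11 passed as higher in *Drp1*LiKO cells, with a median log2 ratio of 2.32, and their summed scaled signal was 5359 in control versus 20393 in *Drp1*LiKO cells. *Clec4f*, which defines Kupffer cells, was not well above background in control cells and at 112 in *Drp1*LiKO cells, while *Timd4* and *Cd163* were at background on both arrays. Of 4 detected markers of monocytes and neutrophils 2 passed as higher, *Ly6c2* and *Ly6g*, whereas *Ccr2*, *S100a8*, *S100a9* and *Mpo* were at background. *Chil3* went the other way, from 32.8 in control cells to not well above background in *Drp1*LiKO cells, at least 2.33-fold lower (Z score -1.86). *Csf3r* was at 17649 in control versus 19912 in *Drp1*LiKO cells (log2 ratio 0.17). None passed among the 3 detected markers each of T and NK cells, B cells and cholangiocytes, nor did the only detected dendritic cell marker. The Kupffer cell and macrophage markers were higher on the array on which *Tnfrsf9*, *Tnfrsf11b*, *Ccl5* and *Il6* were higher and on which the second *Tnf* probe, *Csf1*, *Icam1* and *Ccl2* were lower. The part of such cells in those values was not tested.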

How the data were processed

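RNA of 1 control and 1 *Drp1*LiKO hepatocyte culture was read in 1 color on Agilent 60-mer arrays of 1 slide. The authors deposited Feature Extraction output (version 9.5.1.1 per the labels, 10.7.1.1 per the file headers), from which the processed signal, a background-corrected linear intensity, was used. They also deposited a table of normalized intensities made by a method not given in the sources used here, which served only as an alternative. Its control column ranked the probes as the control array did (rank correlation 1.00), its *Drp1*LiKO column less closely (0.958).

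Control and outlier spots were left out. Each probe was the mean of its log2 signals, less the 75th percentile of its array (313 and 356). A common factor turned scaled values back into signals. Well above background were 48.2% of 56600 probes on the control and 52.1% on the *Drp1*LiKO array, and 30275 probes were so on at least 1 array. A signal below was raised to the lowest that was. Genes were represented by their brightest probe. RefSeq (GRCm38.p6) holds all 41 member names, and the files give coordinates in mm9. The members and gene lists were chosen with earlier results of these data known. Named were members detected on at least 1 array and genes of the signaling and TNF-induced lists past the threshold or at their ends. Of the markers past the threshold or at background only some were named. *Adam17*, *Nfkbia*, *Alb*, *Acta2*, *Egfl7*, *Pax5*, *Ms4a1*, *Cr2*, *Cd3e*, *Prf1*, *Cd8b1*, *Chil3* and *Csf3r* were named after their values were seen. A marker gene is not reported here. Simulated data were used to test the steps from probe signals to calls. Python 3.11.15 with numpy 2.4.6, pandas 2.3.3 and matplotlib 3.10.9 was used, as was limma 3.58.1 in R 4.3.3.

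The alternatives were quantile normalization, normexp correction (offset 50), the deposited intensities, spike-in scaling, other filters, no floor, a robust Z score, outlier spots kept, the median over the probes of each gene, and the percentile over probes detected on both arrays.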

Additional observations from a re-analysis of the deposited data

How the results depend on the processing

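No paired analysis was possible because there was 1 array per genotype. *Tnfrsf11b* passed the threshold as the only higher member under 7 of the 11 alternatives planned. Not all of these could have changed its Z score of 3.23. Spike-in scaling and the percentile over probes detected on both arrays shift every ratio by a constant, which leaves Z scores as they were. The median over probes cannot change a gene with 1 probe, and no outlier spot was among the members' probes. With no floor there were 2 higher members and with a robust Z score 2, *Tnfrsf9* being the second in both, and the robust Z score gave 1 lower member, *Tnfrsf26*. After normexp correction there were 0 higher members, and 0 when only probes detected on both arrays were kept, a filter that leaves *Tnfrsf11b* out. The second *Tnf* probe stayed past the threshold wherever it was kept (log2 ratio -2.72 to -0.91), while the second *Tnfsf15* probe was short of it with no floor (Z score -1.59) and after normexp correction (Z score -1.17). The median over members ranged from -0.33, with no filter, to -0.13, with spike-in scaling. Over all genes the median was -0.47 with no filter and -0.006 with spike-in scaling. With no filter the members thus lay above all genes, but that median reflects the detection limits. Signals at background on both arrays were raised to these limits, whose log2 difference was also -0.47. Leaving out the *Tnfsf10* repeat probe, an alternative chosen after seeing the data, gave a member median of -0.17. Of the signaling proteins, 2 passed with no filter, 1 after normexp correction, 1 with probes detected on both arrays and 3 with the robust Z score, *Traf1* in all but the normexp case. Of the TNF-induced genes, 2 passed in the deposited intensities, 3 with no floor and 8 with the robust Z score. Single members kept their sign in all but 6 of 294 values. These concerned *Ltbr*, *Tnfrsf12a*, *Tnfsf8* and *Tnfsf13b* in the deposited intensities and *Tnfsf8* and *Tnfsf13b* after normexp correction. Many of the 294 were fixed in advance. The log2 ratio of a probe does not change with a robust Z score (27 values), no filter (27) or probes detected on both arrays (24). The 27 values with outlier spots kept could hardly change, since no spot of a member probe was an outlier. By more than the spot noise 23 of the 294 values moved, 13 of them in the deposited intensities, where *Tnfsf15* was at -1.18 and *Tnfrsf26* at -0.24. For the deposited intensities the detection limit was the lowest percentile of control values among detected probes, also chosen after seeing the data. Signals near background limit the precision for most ligands.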
